A study of Mus musculus with 11 samples.

Results

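The microRNAs described here are those named miR-297, miR-466, miR-467 and miR-669, most of which are encoded in a large cluster inside the mouse gene Sfmbt2. They were taken as every probe of the bead chip with a name part that starts with one of these family names, which gave 43 of 655 probes. Liver total RNA was measured from 6 LivPGC-1β mice, transgenic animals that overexpress the transcriptional coactivator PGC-1β selectively in the liver, and from 5 wild-type (WT) mice. All 11 animals were FVB/N mice aged 4 months, were fasted overnight and contributed 1 array each. The study asked which hepatic microRNAs differ when the coactivator is overexpressed. The sex of the mice and the promoter of the PGC-1β transgene are not given in the sources used here.

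Sfmbt2 encodes a Polycomb group protein and is imprinted in the mouse, where the paternal copy is the one expressed in extraembryonic tissue. One of its introns carries a rodent cluster of repeated microRNA genes, known above all from placenta, where its loss impairs placental growth. Mature microRNAs guide Argonaute proteins to messenger RNAs, and pairing through bases 2 to 8, the seed, decides most of the target choice. Many members are built from runs of alternating bases, so that some relatives share long stretches. Among single members, miR-466l is known to bind the transcript of the cytokine interleukin 10 in mouse macrophages, miR-466h is known as a promoter of apoptosis in hamster ovary cells deprived of nutrients, and miR-669a is known to repress the muscle regulator MyoD.

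The label of an Sfmbt2 cluster held for most probes but not for all. The chip's annotation gives 36 of the 43 probes a locus on chromosome 2, where Sfmbt2 lies, and 7 have loci on other chromosomes alone. By gene name, 42 probes matched microRNA genes of the RefSeq annotation of GRCm38.p6. Of these, 35 have a locus inside Sfmbt2 and the same 7 lie elsewhere, while miR-466a-5p found no match. The annotation places 72 microRNA genes inside Sfmbt2 and 71 of them bear the 4 family names. The 7 probes from outside the cluster are miR-466f and miR-466i on chromosome 13, miR-466j on chromosome 10, miR-466k on chromosome 3, miR-467f on chromosome 11, miR-467g on chromosome 5 and miR-467h on chromosome 9. miR-466i lies within Cdk13, a kinase gene of the transcription machinery, miR-467f within Fxr2, which encodes an RNA-binding protein related to that of fragile X syndrome, and miR-467g within Grk4, a receptor kinase gene. Copies within the cluster cannot be told apart by these probes, since miR-467a alone has 10 genes there and miR-669a has 12. Another 3 probes each carry several microRNA names and are called here the miR-297c* probe, the miR-466a-3p probe and the miR-467a* probe.

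Mature sequences from RefSeq (GRCm38.p6) are shown for the 6 members that were matched to an entry, all of them outside Sfmbt2. They include miR-467f, the member with the smallest p between genotypes, and miR-466i, among the most variable within LivPGC-1β mice. Each is written 5′ to 3′ with the seed in capitals.
miR-467f: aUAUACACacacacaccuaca
miR-466i: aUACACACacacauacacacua
miR-467g: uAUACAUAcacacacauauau
miR-467h: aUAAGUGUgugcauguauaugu
miR-466j: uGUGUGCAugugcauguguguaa
miR-466k: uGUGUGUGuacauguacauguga
The chip names no arm for miR-466i, and the sequence shown is the RefSeq entry of its 3p arm. In GRCm38.p6 miR-467f lies at chr11:69635419-69635439 on the minus strand, miR-466i at chr13:17747552-17747573 on the plus strand, miR-467g at chr5:34732872-34732892 on the minus strand, miR-467h at chr9:115381898-115381919 on the plus strand, miR-466j at chr10:60960802-60960824 on the plus strand and miR-466k at chr3:85467396-85467418 on the plus strand. The 6 seeds all differ. miR-467f and miR-466i nevertheless share an unbroken run of 13 bases (auacacacacaca), longer than the run that either shares with miR-467g, 11 bases (auacacacaca). miR-467f, miR-466i and miR-467g hold no G, whereas miR-467h, miR-466j and miR-466k hold 6, 8 and 7. Of the 655 probes, 144 outside these families were matched to a mature sequence by identical name, and 0 of them carried a seed of the 6 members. The remaining probes outside the families were not checked, so shared seeds elsewhere on the chip remain possible.

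Values are log2 bead intensities after quantile normalization of the 11 arrays, without subtraction of background. A probe counted as detected on an array where its detection p-value, computed against the chip's negative controls, was 0.01 or less. On this criterion, 25 members were detected on all arrays (58.1%, against 65.8% of all probes), 8 on some and 10 on none. Arrays of LivPGC-1β mice detected 25 to 30 members and arrays of WT mice 27 to 29. The 10 members detected on no array were miR-297c, miR-466b-5p, miR-466j, miR-466k, miR-467b*, miR-467e*, miR-467g, miR-669g, miR-669h-5p and miR-669k. The opposite arms of some of them were measured throughout, among them miR-467e and miR-669h-3p.

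**Figure D1:**
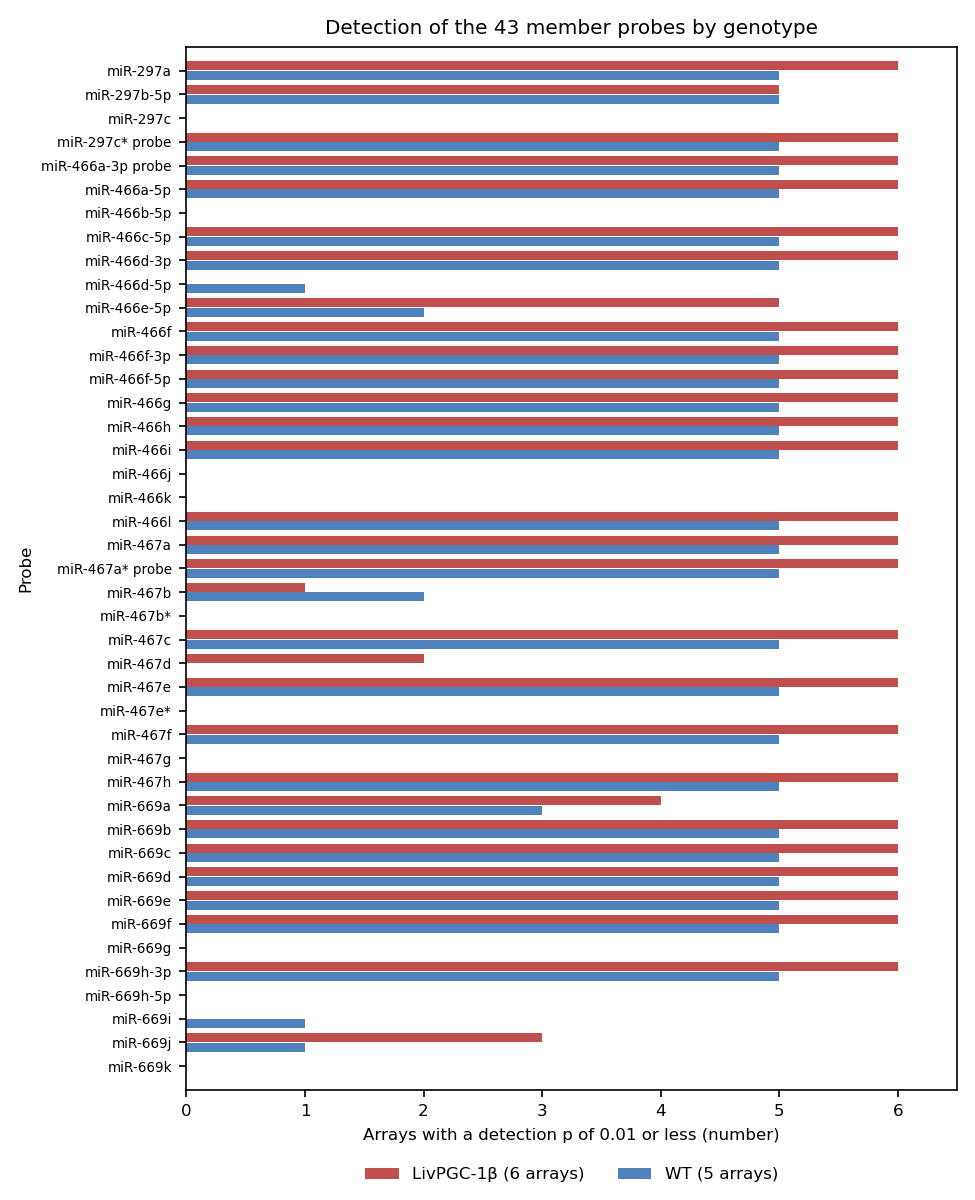
Number of arrays (horizontal axis) with a detection p of 0.01 or less for each of the 43 probes, with LivPGC-1β (6 arrays) drawn above WT (5 arrays). Most members were detected on every array or on none; miR-466e-5p had 5 LivPGC-1β arrays and 2 WT arrays.

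Detection differed by 3 arrays or more between genotypes only for miR-466e-5p, with 5 of 6 LivPGC-1β mice and 2 of 5 WT mice. Its intensities nevertheless overlapped throughout. They were 8.40, 8.45, 8.70, 8.47, 8.61 and 8.59 in LivPGC-1β mice 1 to 6, against 8.40, 8.78, 8.47, 8.40 and 8.54 in WT mice 1 to 5. The difference was 0.02 on the log2 scale (SE 0.0791, limma, adjusted p = 0.962), and the intensities sat at the edge of detection. miR-467d was detected in 2 LivPGC-1β mice and in 0 WT mice, with means of 8.41 and 8.29. Its mean in LivPGC-1β mice did not exceed the mean level needed for detection in WT mice, 8.50, so that no fold can be given. Of the 2 LivPGC-1β mice with detection, mouse 3 read 8.40, below that level, and mouse 4 read 8.70, above it. Mouse 2 read 8.63 without being detected, since the lowest detected probe of its own array was at 8.72. miR-466d-5p and miR-669i were detected on the array of WT mouse 5 alone. There miR-466d-5p read 10.49, against 7.96 to 8.24 in LivPGC-1β mice and 8.03 to 8.16 in the other WT mice, and miR-669i read 9.86, against 7.96 to 8.12 in LivPGC-1β mice and 7.87 to 8.03 in the other WT mice. For miR-466d-5p the mean signal was 1.07-fold lower in LivPGC-1β mice, set at the lowest detected intensity of their arrays, than in WT mice. This ratio rests on WT mouse 5 and is not a bound, since the WT mean includes the undetected values of the other WT mice. For miR-669i the same ratio came to under 1.

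The 493 probes detected on at least 5 arrays entered the comparison of genotypes, made with limma and adjusted by the Benjamini-Hochberg method over all of them. They included 28 members. The other 15 were not tested and, apart from the 2 high values of WT mouse 5, lay at or below 8.70 on every array. Among all 493 probes 2.03% passed an adjusted p of 0.05, and 0 of the 28 members did. At an unadjusted p below 0.05, 3 members were higher in LivPGC-1β mice, which is 10.7% of the members tested beside 10.1% of all probes tested. None of the 28 was lower at that level, beside 2.43% of all probes. No member had all LivPGC-1β mice above all WT mice (3.45% of all probes) or all below (1.22%). The members' share of higher values was thus near that of the chip as a whole. Their median difference, LivPGC-1β minus WT, was 0.08 beside 0.01 over all probes, with 17 positive and 11 negative differences in a range of −0.19 to 0.47. Fewer cells expressing a microRNA and less of it per cell cannot be told apart in whole liver.

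**Figure D2:**
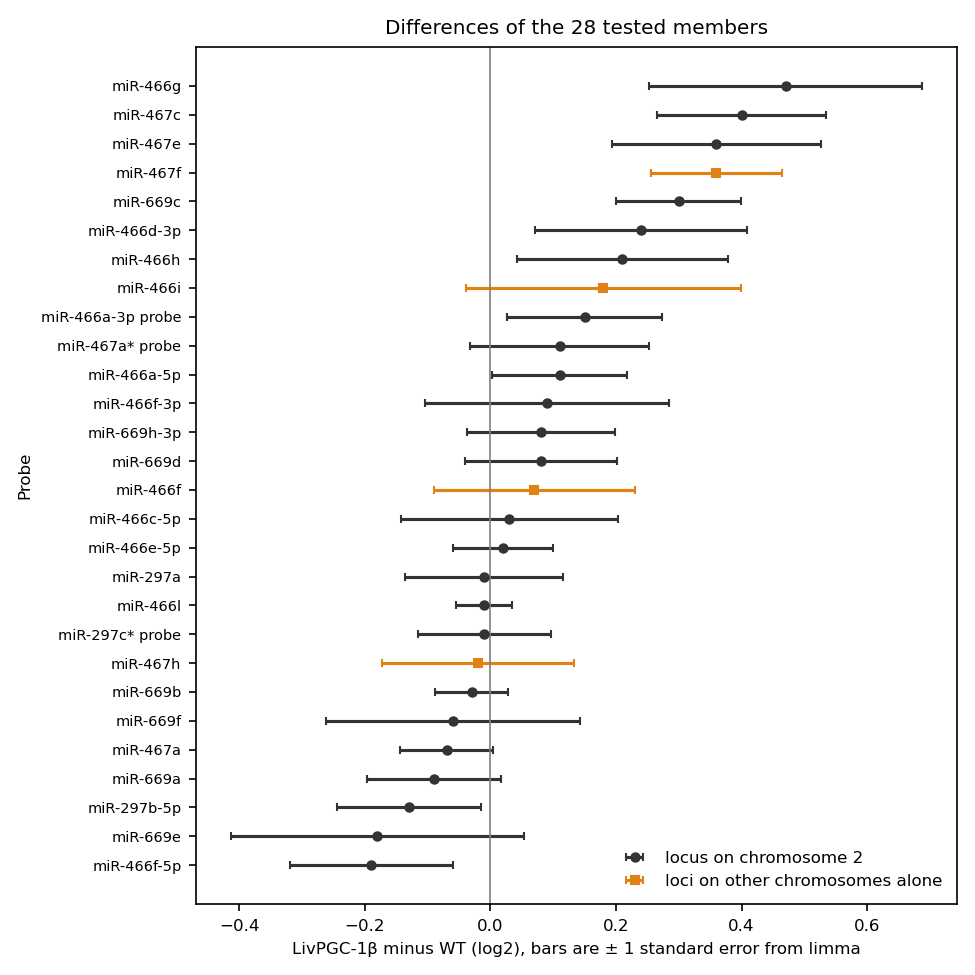
Difference between genotypes (horizontal axis, LivPGC-1β minus WT, log2) for the 28 tested members, with bars of 1 standard error; squares mark members whose loci lie on other chromosomes than chromosome 2 alone. Differences run from −0.19 for miR-466f-5p to 0.47 for miR-466g, and the 4 squares lie among the rest.

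By family, the 6 tested miR-467 probes had a median difference of 0.24 and held 2 of the 3 members with an unadjusted p below 0.05. The 12 miR-466 probes had a median of 0.10, with 10 positive differences and 0 past that level. The 7 miR-669 probes had a median of −0.03 with 1 past it, and the 3 miR-297 probes a median of −0.01 with 0. The 24 tested members with a locus on chromosome 2 had a median of 0.06, beside 0.13 for the 4 from other chromosomes. These medians are descriptions of small groups of probes and differences between them were not tested.

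miR-467f, the member from the Fxr2 locus whose sequence is given above, had the smallest p. It read 10.40, 10.73, 10.59, 10.89, 10.40 and 10.50 in LivPGC-1β mice 1 to 6, against 10.17, 10.37, 10.02, 10.42 and 10.13 in WT mice 1 to 5. LivPGC-1β mice 2, 3, 4 and 6 were above every WT mouse, and mice 1 and 5 were just below WT mouse 4. The means were 10.59 ± 0.19 (SD, n = 6) and 10.22 ± 0.17 (SD, n = 5). The difference of 0.36 (SE 0.105), 1.29-fold, had an unadjusted limma p of 0.00595 and an adjusted p of 0.133, and a two-sided exact permutation test gave p = 0.0130. It therefore did not pass the threshold over all probes.

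miR-467c, which lies in the cluster, showed a difference of similar size. LivPGC-1β mice 1 to 6 read 9.28, 9.18, 9.45, 8.80, 9.42 and 9.22, against 8.83, 8.85, 8.52, 9.16 and 8.75 in WT mice 1 to 5. All LivPGC-1β mice but mouse 4 were above every WT mouse, and mouse 4 was below WT mice 1, 2 and 4. Means of 9.23 ± 0.24 and 8.82 ± 0.23 (SD, n = 6 and 5) differed by 0.40 (SE 0.134), with an adjusted limma p of 0.202 and an exact permutation p of 0.0216. Without LivPGC-1β mouse 4 the difference was 0.49 with an adjusted limma p of 0.0527, still short of the threshold.

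miR-669c is also a member of the cluster. Its intensities were 9.17, 9.41, 9.37, 9.43, 9.49 and 9.54 in LivPGC-1β mice 1 to 6, against 9.19, 9.03, 8.90, 9.43 and 8.96 in WT mice 1 to 5. LivPGC-1β mice 5 and 6 were above all WT mice, and WT mouse 4 was level with LivPGC-1β mouse 4. The means, 9.40 ± 0.13 and 9.10 ± 0.21 (SD, n = 6 and 5), differed by 0.30 (SE 0.0994), with an adjusted limma p of 0.202 and an exact permutation p of 0.0303. WT mouse 4 decided this call, since without it the difference was 0.38 and the adjusted limma p 0.0475.

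All 3 of these members were lowest on the array of WT mouse 3. Without that mouse, the differences were 0.31 for miR-467f, 0.32 for miR-467c and 0.24 for miR-669c, with adjusted limma p values of 0.277, 0.353 and 0.378. The arrays of WT mice occupied the first 5 sections of the chip and those of LivPGC-1β mice the other 6, so section and genotype cannot be told apart without assuming a trend. With a linear trend over sections in the model, the differences were 0.39, 0.40 and 0.09 for miR-467f, miR-467c and miR-669c, and their unadjusted limma p values were 0.109, 0.192 and 0.644.

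miR-466g and miR-467e had differences of similar or larger size and higher p values. miR-466g read 9.92, 10.13, 10.32, 10.91 and 9.64 in LivPGC-1β mice 1, 2, 3, 4 and 6, with mouse 5 between mice 1 and 2, against 9.65, 9.86, 9.30, 10.08 and 9.51 in WT mice 1 to 5. Its difference was the largest of the 28 members at 0.47 (SE 0.218), with an adjusted limma p of 0.414 and an exact permutation p of 0.0649, and LivPGC-1β mice 2, 3 and 4 exceeded all WT mice. Without LivPGC-1β mouse 4 it was 0.32.

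For miR-467e, LivPGC-1β mice 1 to 6 read 10.61, 10.33, 10.77, 10.53, 10.93 and 10.75, against 10.40, 10.45, 10.13, 10.73 and 9.76 in WT mice 1 to 5. LivPGC-1β mice 3, 5 and 6 exceeded all WT mice, and WT mouse 5 was the lowest of all. The difference of 0.36 (SE 0.166) had an adjusted limma p of 0.414 and an exact permutation p of 0.0693. Without WT mouse 5 it was 0.23.

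**Figure D3:**
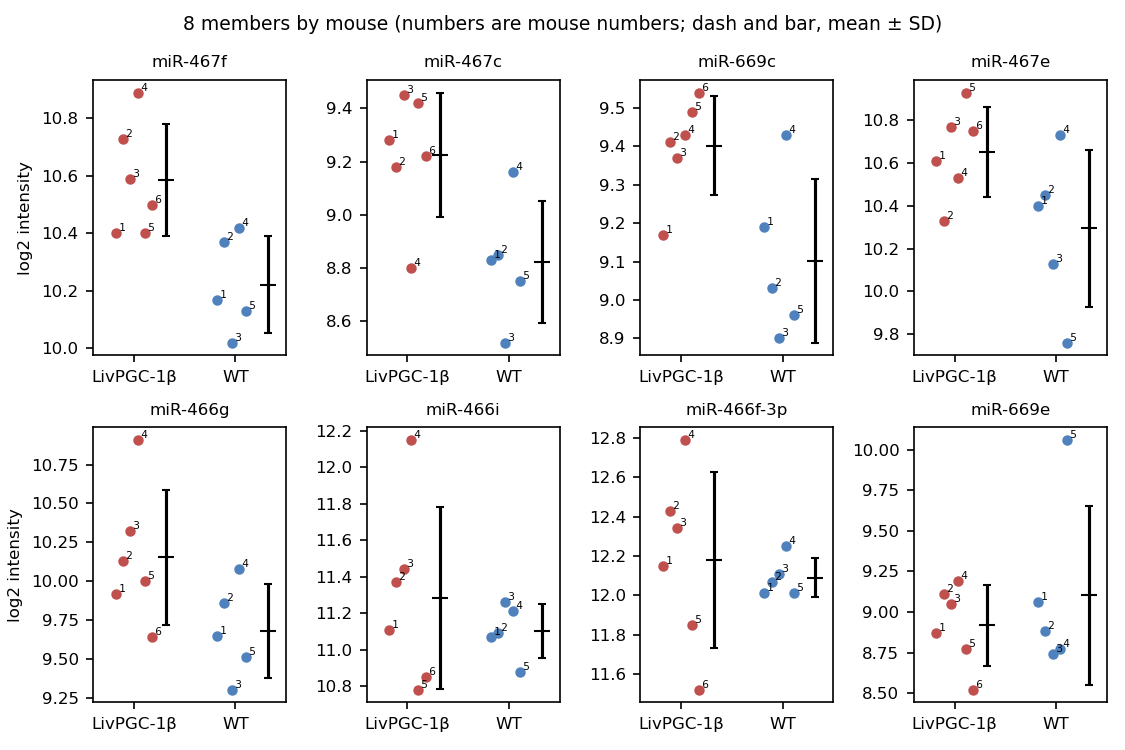
Normalized log2 intensity (vertical axis, a scale of its own in each panel) of 8 members in the 6 LivPGC-1β and the 5 WT mice, each point labelled with its mouse number, with the mean and SD at the right of each group. miR-467f, miR-467c and miR-669c have higher means in LivPGC-1β mice and overlapping groups, and did not pass the adjusted threshold; miR-466i and miR-466f-3p spread widely among LivPGC-1β mice and little among WT mice.

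The largest negative differences were smaller. miR-466f-5p read 10.03, 9.93, 9.93, 10.14, 10.05 and 10.09 in LivPGC-1β mice 1 to 6, against 10.11, 10.19, 9.91, 10.11 and 10.77 in WT mice 1 to 5, a difference of −0.19 (SE 0.130, limma, adjusted p = 0.559). WT mouse 5 held the highest value and the other WT mice lay at 9.91 to 10.19. Without WT mouse 5 the difference was −0.05, and with the trend over sections −0.52. miR-297b-5p differed by −0.13 (SE 0.115, limma, adjusted p = 0.619), with 8.48 to 9.02 in LivPGC-1β mice and 8.56 to 8.99 in WT mice. It was −0.21 without LivPGC-1β mouse 5, −0.08 without WT mouse 4, −0.09 without WT mouse 5 and −0.50 with the trend over sections, and its adjusted limma p stayed above the threshold in each.

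miR-669e read 8.87, 9.11, 9.05, 9.19, 8.77 and 8.52 in LivPGC-1β mice 1 to 6, against 9.06, 8.88, 8.74, 8.77 and 10.06 in WT mice 1 to 5. The other 4 WT mice lay within the range of LivPGC-1β mice, and WT mouse 5 was far above both groups. The difference of −0.18 (SE 0.234, limma, adjusted p = 0.747) became 0.06 without WT mouse 5.

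Where both arms of a hairpin were tested, they did not differ between genotypes past the threshold in either direction. From the miR-466f genes in Sfmbt2, the 3p arm differed by 0.09 (SE 0.195) and the 5p arm by −0.19 (SE 0.130). miR-467a differed by −0.07 (SE 0.0741) and the miR-467a* probe by 0.11 (SE 0.143). miR-297b-5p differed by −0.13 and the miR-297c* probe, which also bears the name of the 3p arm of miR-297b, by −0.01 (SE 0.106). That probe also names the star arm of miR-297a, which itself differed by −0.01 (SE 0.126). miR-466a-5p, miR-466c-5p and miR-466e-5p differed by 0.11 (SE 0.107), 0.03 (SE 0.173) and 0.02 (SE 0.0791). The miR-466a-3p probe, which bears the names of their 3p arms, differed by 0.15 (SE 0.123). Whether the arms of a hairpin differ from each other in their response was not tested.

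Several of these microRNAs varied between mice of the same genotype, though variation was not split into parts within and between genotypes. The range over the 11 arrays of both genotypes had a median of 0.78 over the tested members, beside 0.53 over all tested probes. It was 0.81 in the imprinted Dlk1-Dio3 cluster and 0.37 in the miR-290 and miR-302 clusters, which are described below. In miR-466i, whose mature sequence shares the 13-base run with miR-467f, LivPGC-1β mice 1 to 6 read 11.11, 11.37, 11.44, 12.15, 10.78 and 10.85, against 11.07, 11.09, 11.26, 11.21 and 10.88 in WT mice 1 to 5. LivPGC-1β mice 2, 3 and 4 were above all WT mice and mice 5 and 6 below all of them. The difference in means was 0.18 (SE 0.219, limma, adjusted p = 0.740), and the SDs were 0.50 in LivPGC-1β mice and 0.15 in WT mice. These members and the next were picked after their values were seen, and no test of the spread was made.

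A pair of cluster members had the same mice above and below the WT range. miR-466f-3p read 12.15, 12.43, 12.34, 12.79, 11.85 and 11.52 in LivPGC-1β mice 1 to 6, against 12.01, 12.07, 12.11, 12.25 and 12.01 in WT mice 1 to 5, with SDs of 0.45 and 0.10. miR-669h-3p read 8.82, 8.90, 9.0, 9.36, 8.72 and 8.58 in LivPGC-1β mice, against 8.78, 8.87, 8.75, 8.88 and 8.77 in WT mice, with SDs of 0.27 and 0.06. In both, LivPGC-1β mice 2, 3 and 4 were above all WT mice and mice 5 and 6 below. Without LivPGC-1β mouse 4 the differences were 0.01 for miR-466i, −0.03 for miR-466f-3p and −0.01 for miR-669h-3p. Mice 4 to 6 also sat side by side on the last sections of the chip, and the part of section in these values was not tested.

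Another set had its extremes among WT mice. WT mice 1 and 2 were above every LivPGC-1β mouse for miR-297a, miR-466f and miR-467h. miR-467h read 10.43, 10.55, 10.61, 10.78, 10.65 and 10.71 in LivPGC-1β mice 1 to 6, against 11.09, 10.98, 10.35, 10.23 and 10.56 in WT mice 1 to 5, so that LivPGC-1β mice lay between a high and a low pair of WT mice. Its difference was −0.02 (SE 0.153). miR-466l and miR-669b had narrow ranges instead, 0.26 and 0.29 over all arrays, with differences of −0.01 (SE 0.0450) and −0.03 (SE 0.0578). miR-669b was near the detection limit, at 8.58 to 8.86. miR-669g, detected on no array, had a range of 0.20, so a narrow range near that limit does not by itself show steady expression.

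**Figure D4:**
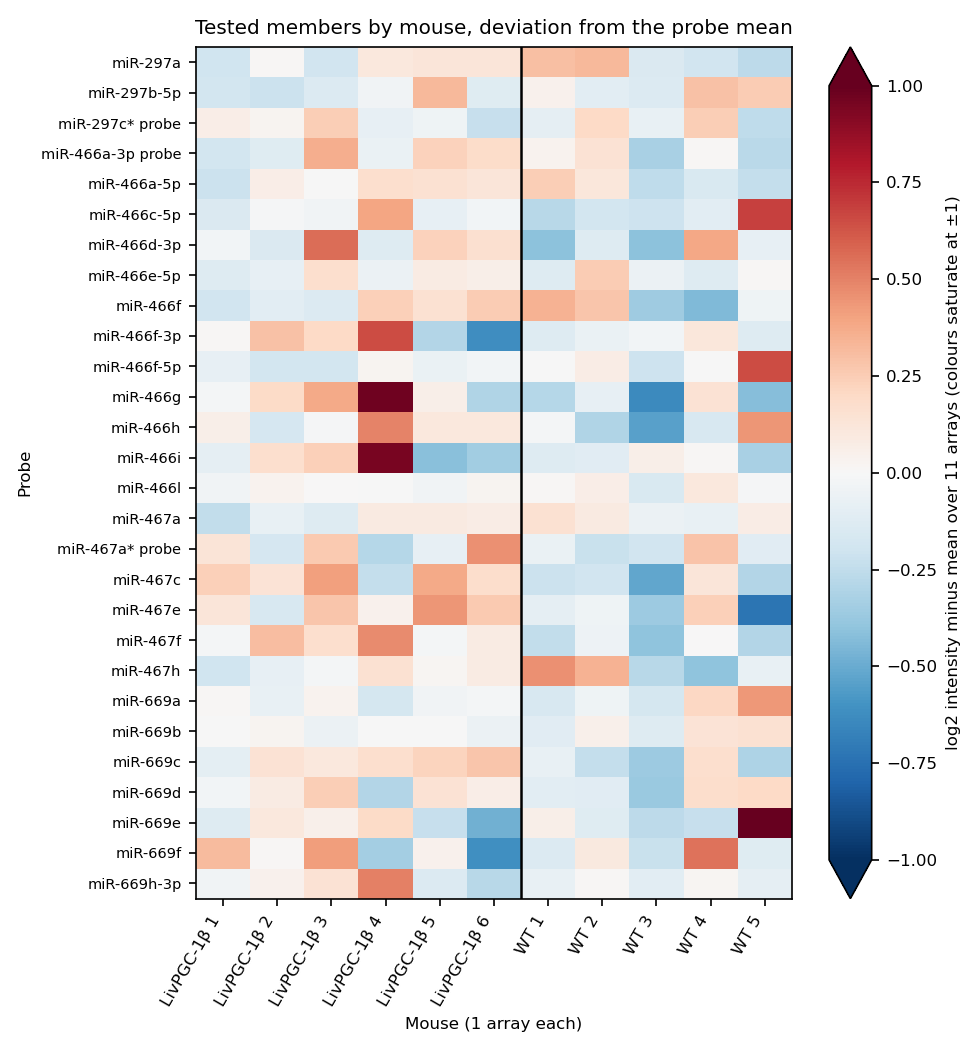
Deviation of each tested member (rows) from its mean over the 11 arrays, in log2 units, by mouse (columns), with LivPGC-1β mice at the left of the black line and WT mice at the right. The column of WT mouse 3 is mostly below the mean, and the strongest single values are those of LivPGC-1β mouse 4 (miR-466g, miR-466i) and WT mouse 5 (miR-669e).

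Arrays also differed as wholes. Relative to each probe's mean, the tested members deviated by a median of −0.21 on WT mouse 3, beside −0.05 for all tested probes there, and 11 of the 28 had their lowest value on that array (16.4% of all tested probes did). LivPGC-1β mouse 4 held the highest value of 6 members and of 10.1% of all tested probes, and WT mouse 5 that of 5 members and of 7.71% of all tested probes. The members' median intensity per mouse ran from 9.61 to 9.98 in LivPGC-1β mice and from 9.31 to 9.78 in WT mice, and overlapped between genotypes. Across the chip, 444 to 508 probes were detected per array. The hepatocyte microRNA miR-122 was at 14.70 to 14.73 in both genotypes. Quantile normalization sets values this high by rank, so this range does not measure hepatocyte content. The leukocyte miR-150 was at 13.27 to 13.44 in LivPGC-1β mice and 13.01 to 13.29 in WT mice. For miR-150, LivPGC-1β mice 2, 3, 4 and 5 were above every WT mouse. miR-142-3p, miR-142-5p and miR-223 overlapped between genotypes, with LivPGC-1β mice 2, 4 and 5 above every WT mouse for miR-142-5p. The erythroid miR-144 read 10.78 on LivPGC-1β mouse 6, against 12.11 to 12.71 in WT mice, while miR-451, also erythroid, read 15.0 on every array. The pancreatic miR-375 read 10.79 on LivPGC-1β mouse 1, against 9.29 to 9.77 in WT mice. Other pancreatic microRNAs did not all stand high there. On that array miR-216b read 8.93 (8.85 to 9.19 in WT mice) and miR-217 read 8.65 (8.30 to 8.56 in WT mice). miR-216a read 8.05 and was detected on no array. The striated muscle microRNAs miR-133a, miR-133b and miR-206 stood high on the arrays of LivPGC-1β mouse 4 and, more so, WT mouse 1, with miR-206 at 11.03 on LivPGC-1β mouse 4 and at 13.91 on WT mouse 1. miR-1 was detected on WT mouse 1 alone. The other arrays read 8.23 to 8.89 for miR-206 in LivPGC-1β mice and 8.27 to 9.47 in WT mice. On these arrays miR-466g read 10.91 on LivPGC-1β mouse 4 and 9.65 on WT mouse 1, and miR-466i read 12.15 on LivPGC-1β mouse 4 and 11.07 on WT mouse 1. The part of muscle RNA in the members' values was not tested.

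Other clusters known for embryonic or imprinted expression were tallied in the same fit. In the imprinted Dlk1-Dio3 cluster, 49 of 74 probes were tested, 0 passed the adjusted threshold, 1 was higher and 1 lower at an unadjusted p below 0.05, and 37 of the 49 differences were negative with a median of −0.06. In the miR-290 and miR-302 clusters, which mark pluripotent cells, 10 of 22 probes were tested, with 0 past the adjusted threshold, 1 higher at the unadjusted level and a median of 0.02. The median of the Sfmbt2 families, 0.08, lay above both, and whether the clusters differ was not tested.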

How the data were processed

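The arrays were read on an Illumina iScan, and the authors deposited the raw bead intensity per probe as exported by Genome Studio, with no normalization or background subtraction. All values here start from it. The authors also deposited a detection p-value for each probe and array. Their own quantile-normalized linear intensity table, also deposited, served as an alternative. The members and lists were chosen with earlier results of these data known. Quantile normalization covered all 655 probes on the 11 arrays, followed by log2. A probe was tested if its detection p was at most 0.01 on 5 arrays or more, which kept 493. limma 3.58.1 in R 4.3.3 gave LivPGC-1β minus WT with no covariate, with Benjamini-Hochberg adjustment over the 493 and a threshold of 0.05. The study's methods state no test for the arrays, so limma is a choice made here. Two-sided exact permutation tests used all 462 splits of the arrays into 6 and 5, with a smallest p of 0.00216. P values measure the spread between mice, and the number of arrays limits the precision.

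Named with differences were members with an unadjusted p below 0.05, miR-467c and miR-467f (drawn in a heatmap of the study), the 5 largest and the 3 most negative differences, members without overlap between genotypes and members whose detection differed by 3 arrays. Other members given with values were chosen after these were seen. A member not detected in a genotype was set, on each of its arrays, at the lowest intensity of a detected probe. Members were located by name in RefSeq (GRCm38.p6). Simulated data with known changes were used to test the fit. Alternatives were no normalization, median scaling, cyclic loess, normexp (offset 16), the deposited normalized table, other filters and variance models, a replicate block, a trend over chip sections and left-out mice. Figures were drawn with matplotlib 3.10.9 in Python 3.11.15. LivPGC-1α arrays were not analysed here.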

Additional observations from a re-analysis of the deposited data

Results flagged for a closer look

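Within a genotype, 6 of the 66 sets of member values (9.09%) held a mouse apart from the others by Dixon's 95% criterion, beside 11.4% over all probes detected on at least 1 array; chance flags about 1 in 20. In LivPGC-1β mice, miR-297b-5p read 9.02 in mouse 5, with the next at 8.66, and miR-466c-5p read 9.23 in mouse 4, with the next at 8.82. The other 4 were all on the array of WT mouse 5. There miR-466c-5p read 9.52 (next WT mouse 8.73), miR-466d-5p 10.49 (8.16), miR-669e 10.06 (9.06) and miR-669i 9.86 (8.03). Over the whole chip, 28 such values lay on WT mouse 5 and 28 on LivPGC-1β mouse 4.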

How the results depend on the processing

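Without normalization 0 members were higher and 5 lower at an unadjusted p below 0.05 (miR-297b-5p, miR-466f-5p, miR-466l, miR-467a and miR-669b), beside 6 higher and 80 lower of all 493 probes, and the members' median was −0.16 while that of all probes shifted to −0.14. With median scaling 5 were higher (miR-466g, miR-467c, miR-467e, miR-467f and miR-669c), beside 81 of all 493, with the median of all probes at 0.11. Cyclic loess gave 1 lower (miR-466l; 44 of all 493), no detection filter 1 lower of 43 members (miR-297c; 18 of all 655), a trend over chip sections 0 higher and 1 lower (miR-297b-5p; 23 higher and 12 lower of all 493), and leaving out WT mice 1, 3 and 5 together 0 higher and 1 lower (miR-669b; 19 higher and 32 lower of all 488). The difference of miR-669e turned to 0.09 in that fit and to 0.00 without LivPGC-1β mouse 4 and WT mouse 5, which was chosen after seeing the data; the cause was not tested. With 1 mouse left out, members called numbered 0 to 1 (miR-669c without WT mouse 4), members higher 3 to 6, members lower 0 to 1, their median ran from 0.00 to 0.09, and miR-669e from −0.27 to 0.06. Over the 26 alternatives miR-467f ran from 0.14 to 0.43 (adjusted limma p 0.0857 to 0.708), miR-467c from 0.22 to 0.70 (0.0527 to 0.780) and miR-669c from 0.07 to 0.47 (0.0475 to 0.953), and all 3 stayed positive.

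Mice with the same number in both genotypes did not deviate together (correlations −0.135 to 0.068). The labels do not say whether the numbers pair mice, and so few correlations cannot decide it. With a replicate block, fitted on mice 1 to 5 of each genotype without LivPGC-1β mouse 6, 2 members were higher at the unadjusted level (miR-466g and miR-467f), beside 37 of all 493. In that fit 0 members were called, and the median was 0.05. Leaving out LivPGC-1β mouse 6 with no block gave the same differences for miR-466g (0.57) and miR-467f (0.38). There 4 members were higher, beside 45 of all 490, and 10 of all probes were called. Counts over all 493 probes moved too: 10 were called, against 0 without normalization or with a trend over sections, 4 with median scaling, 4 without WT mice 1, 3 and 5 and 1 with the block. With 1 mouse left out it ran from 4 to 13, with 4 without WT mouse 1, 5 without LivPGC-1β mouse 1 and 6 without LivPGC-1β mouse 3. Signal near the detection limit bounds what can be said of the 15 untested members.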
